A study of Mus musculus with 24 samples.

Results

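The 36 genes described here carry glucose through glycolysis to pyruvate and lactate, feed the pentose phosphate pathway, or control how pyruvate enters mitochondria. They were chosen by symbol, matched to the Ensembl IDs of the count table through GENCODE M21, and all 36 of 36 were found among its 39056 genes and passed the filter on low counts that left 18789 genes for testing. The counts come from total RNA of CD4 T cells of female NZBWF1/j mice, hybrids prone to an autoimmunity that resembles lupus. Treated mice (OX40L-JAG1) were given 2 recombinant mouse proteins, OX40L, which binds OX40 on T cells, and JAG1, which binds Notch receptors, into the peritoneum at 2 mg/kg of each, once a week for 3 weeks from the age of 23 weeks. Control mice of the same age and sex received PBS, and cells of both were sorted at week 26. The 8 groups are treated and control Tconv (conventional cells, CD4+CXCR5-GITR-), Treg (regulatory cells, CD4+CXCR5-GITR+), TFH (follicular helper cells, CD4+CXCR5+PD1Hi GITR-/low) and TFR (follicular regulatory cells, CD4+CXCR5+PD1Hi GITRHi), with 3 libraries each. The labels do not tell whether the 3 libraries of a group are separate mice, and the p-values therefore reflect only library-to-library spread, which may be technical.

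Glycolysis splits glucose into pyruvate and yields ATP without oxygen, and lactate dehydrogenase then turns pyruvate into lactate, which leaves the cell through monocarboxylate transporters. The pentose phosphate pathway branches off after the first phosphorylation and supplies NADPH and ribose for nucleotides. Activated and dividing T cells are known to take up more glucose and to export more lactate than resting ones. Several steps are catalysed by alternative isozymes encoded by separate genes, and which isozyme a cell uses changes how the step is controlled.

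Library totals ran from 31.8 to 53.8 M counts in treated groups and from 2.54 to 33.2 M in control groups, with the lowest in control TFH (2.54 to 15.2 M) and control TFR cells (4.85 to 9.62 M). Mitochondrially encoded genes took 1.85 to 3.17% of counts in treated libraries and 9.50 to 16.9% in control libraries. Treatment thus went with a difference in depth and in this share in every subset, and these and the treatment cannot be told apart. The 8 CD4 T cell markers were present in every group, and the 5 Treg markers summed to 1982 to 2870 CPM in Treg and TFR libraries against 132 to 212 CPM in Tconv libraries. TFH libraries of both treatments also held 790 to 1040 CPM of the Treg markers. Transcripts of kidney cells (a podocyte marker sum of 467 to 1230 CPM, against 3.42 to 61.2 CPM in the libraries not named here) were present in treated TFH 3, treated TFR 1 and control Tconv 1 and 2, and to a lesser degree (132 CPM) in treated Treg 3. In sorted bulk RNA, fewer cells of a type and less RNA per cell cannot be told apart.

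Glycolytic transcripts were higher in treated than in control libraries of all 4 subsets. The largest count of genes called was in TFR cells when all 24 libraries were fitted together. That count depends on the fit, since 30 of the 36 genes were called in Treg cells with only the libraries compared. The share of all genes called in that fit is not given here, and the order of the subsets may differ in it. Together the 36 genes summed to 3801 ± 116 CPM in treated Tconv libraries, against 2592 ± 141 CPM in control Tconv libraries (SD, n = 3 here and below). In Treg cells the sum was 5136 ± 370.1 CPM in treated Treg libraries, against 3471 ± 44.1 CPM in control Treg libraries. TFH cells had 4852 ± 174 CPM in treated TFH libraries, against 2879 ± 203 CPM in control TFH libraries. In TFR cells the sum was 7671 ± 562 CPM in treated TFR libraries, against 3356 ± 98.8 CPM in control TFR libraries, and in each subset the 3 treated libraries lay above the 3 control libraries. CPM here are TMM-normalised CPM, read counts relative to the scaled library total, and tests are edgeR's quasi-likelihood test with Benjamini-Hochberg adjustment over all 18789 genes and a threshold of 0.05. Values after ± are standard errors of the model where they follow a log2 fold change and SD where they follow a level, and a bare value after them in brackets is the edgeR adjusted p.

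In Tconv cells treated against control libraries gave 14 higher and 0 lower of the 36 genes, where 6.89% of all genes tested were higher and 3.05% lower. Treg cells gave 15 higher and 1 lower of the 36 genes, where 5.17% of all genes tested were higher and 3.56% lower. TFH cells gave 19 higher and 0 lower of the 36 genes, where 16.5% of all genes tested were higher and 5.86% lower. TFR cells gave 22 higher and 0 lower of the 36 genes, where 15.6% of all genes tested were higher and 6.39% lower. The median log2 fold change of the 36 genes was 0.36 in Tconv, 0.49 in Treg, 0.70 in TFH and 0.86 in TFR cells, where the median of all genes tested was 0.02, 0.09, 0.42 and 0.40. The median of all genes in TFH cells moved with the setting, between 0.13 with thinned libraries and 0.78 without control TFH 3 or with no low-count filter, where the 36 genes had 0.63, 0.63 and 0.68, so it lay above theirs in the last 2 of these. In TFR cells it ran from 0.00 with DESeq2 to 0.60 without control TFR 1, where the 36 genes had 0.80 and 0.90. 12 genes were higher in all 4 subsets, namely Slc2a1, Gpi1, Pfkl, Pfkp, Aldoa, Tpi1, Pgk1, Pgam1, Eno1, Pkm, Ldha and Pdk1, where 1.6% of all genes tested were. A further 12 passed in no subset in the higher direction, and Pfkfb4 was the 1 gene that fell in any.

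With each library of a comparison left out in turn, 11 of 14 calls in Tconv, 13 of 16 in Treg, 17 of 19 in TFH and 19 of 22 in TFR cells stayed past the threshold in every fit. Without control Tconv 1 and 2, treated TFH 3 and treated TFR 1, 3 of 14 calls in Tconv cells remained (Pfkp, Aldoa and Tpi1), and the calls over all genes numbered 626, against 1868 with all libraries. That fit has 1 control Tconv library, which is assumed to vary like the other groups. The 11 genes no longer called had log2 fold changes of 0.20 to 1.08 in it, all above 0, such as 1.08 for Eno1 (1.16 with all libraries), 0.54 for Pgk1 (0.52), 0.41 for Pkm (0.45) and 0.20 for Gpi1 (0.43). In the same fit 15 of 16, 17 of 19 and 21 of 22 remained in Treg, TFH and TFR cells. Of 6 markers of dividing cells, 3 in Tconv, 5 in Treg, 4 in TFH and 4 in TFR cells were higher with treatment and 0 lower. They summed to 520 to 544 CPM in treated and 237 to 269 CPM in control libraries of Tconv cells. Treg cells had 1636 to 1758 CPM of them in treated and 366 to 404 CPM in control libraries. In follicular cells they summed to 762 to 914 CPM in treated and 351 to 388 CPM in control TFH libraries, and to 2110 to 2375 CPM in treated and 637 to 942 CPM in control TFR libraries. The 8 CD4 T cell markers were higher too, with 8 called in Tconv, 4 in Treg, 5 in TFH and 6 in TFR cells (1 lower in TFR), and median log2 fold changes of 1.06, 0.46, 0.61 and 0.57. They summed to 4436 to 4539 CPM in treated and 1790 to 2268 CPM in control Tconv libraries, and to 3265 to 3537 CPM in treated and 2750 to 2761 CPM in control Treg libraries. Their sums were 3484 to 3944 CPM in treated and 2466 to 2581 CPM in control TFH libraries, and 2943 to 3494 CPM in treated and 2366 to 2574 CPM in control TFR libraries.

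Of 4 TFH markers, 1 was higher and 3 were lower with treatment in TFH and in TFR cells, with sums of 813 to 1001 CPM in treated and 1143 to 1239 CPM in control TFH libraries, and of 811 to 936 CPM in treated and 1278 to 1396 CPM in control TFR libraries. In Treg cells 1 was higher and 2 were lower, with sums of 717 to 725 CPM in treated and 1034 to 1056 CPM in control libraries. Tconv cells had 2 higher and 1 lower. The 5 Treg markers gave 3, 2, 0 and 2 higher and 1, 1, 2 and 0 lower in Tconv, Treg, TFH and TFR cells. Tnfrsf18, which encodes GITR, was lower in all treated Tconv, Treg and TFH libraries and overlapped in TFR cells. In Treg libraries it had 126 to 146 CPM in treated and 204 to 242 CPM in control mice. Of 3 tested CD8 and NK markers 2 were higher in TFH and in TFR cells, where the sums of all 5 overlapped between groups (4.81 to 6.55 CPM in treated and 1.56 to 5.02 CPM in control TFH, 8.51 to 12.2 CPM in treated and 0.484 to 9.66 CPM in control TFR libraries). Of the erythroid markers 1 of 3 tested was lower in TFH cells, with sums of 0.321 to 4.15 CPM in treated and 9.39 to 25.9 CPM in control libraries. The part of these markers, of CD4 T cell markers and of markers of dividing cells in the changes of the 36 genes was not tested.

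**Figure D1:**
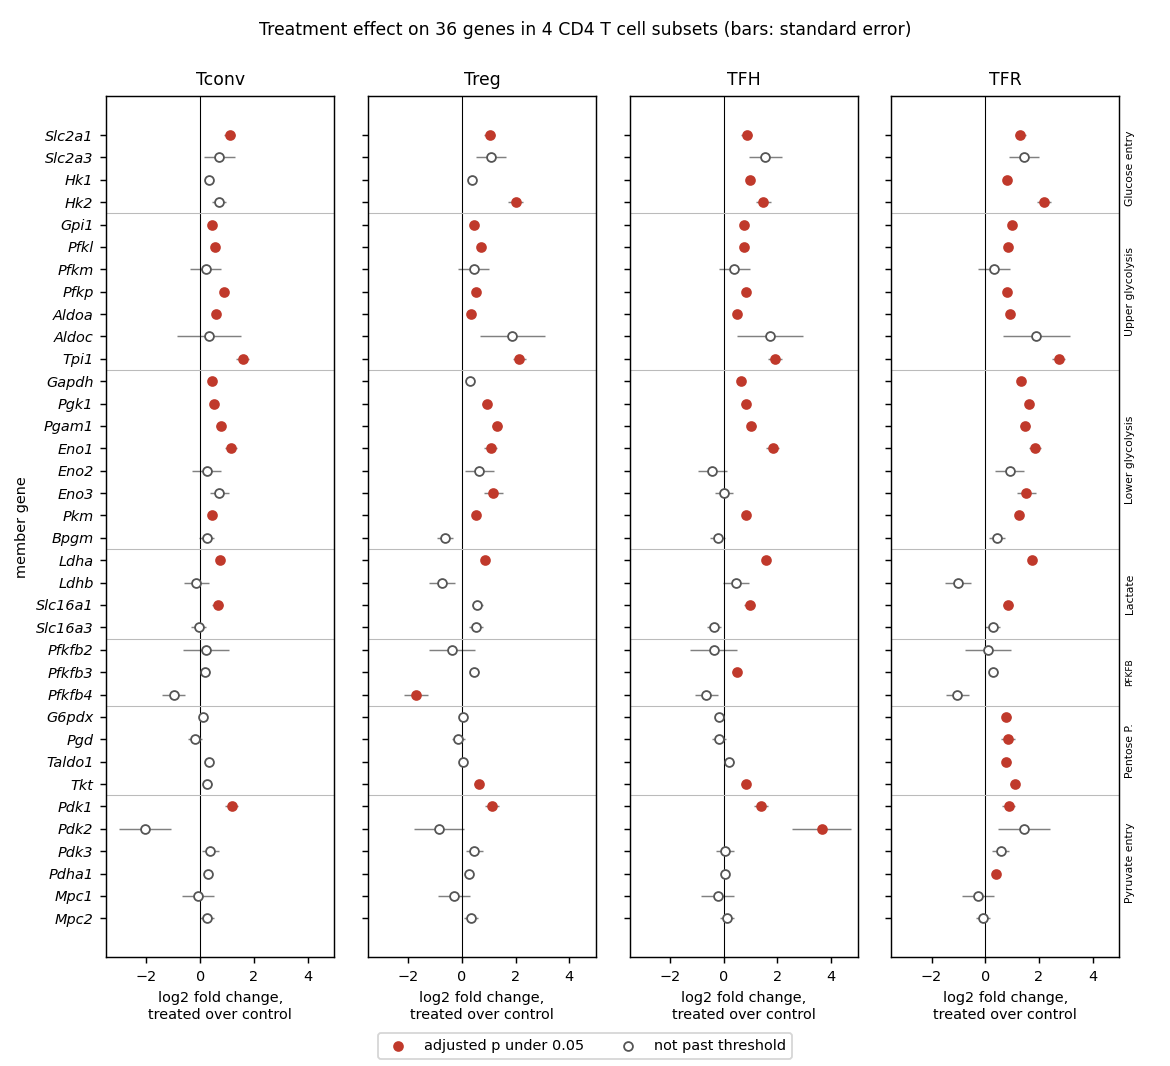
Log2 fold change (treated over control, x axis) of each of the 36 genes (rows, grouped by step) in the 4 subsets, with standard errors from the model. Filled points passed an adjusted p of 0.05 (14, 16, 19 and 22 genes in Tconv, Treg, TFH and TFR cells), and Pfkfb4 in Treg cells is the 1 filled point left of 0.

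**Figure D2:**
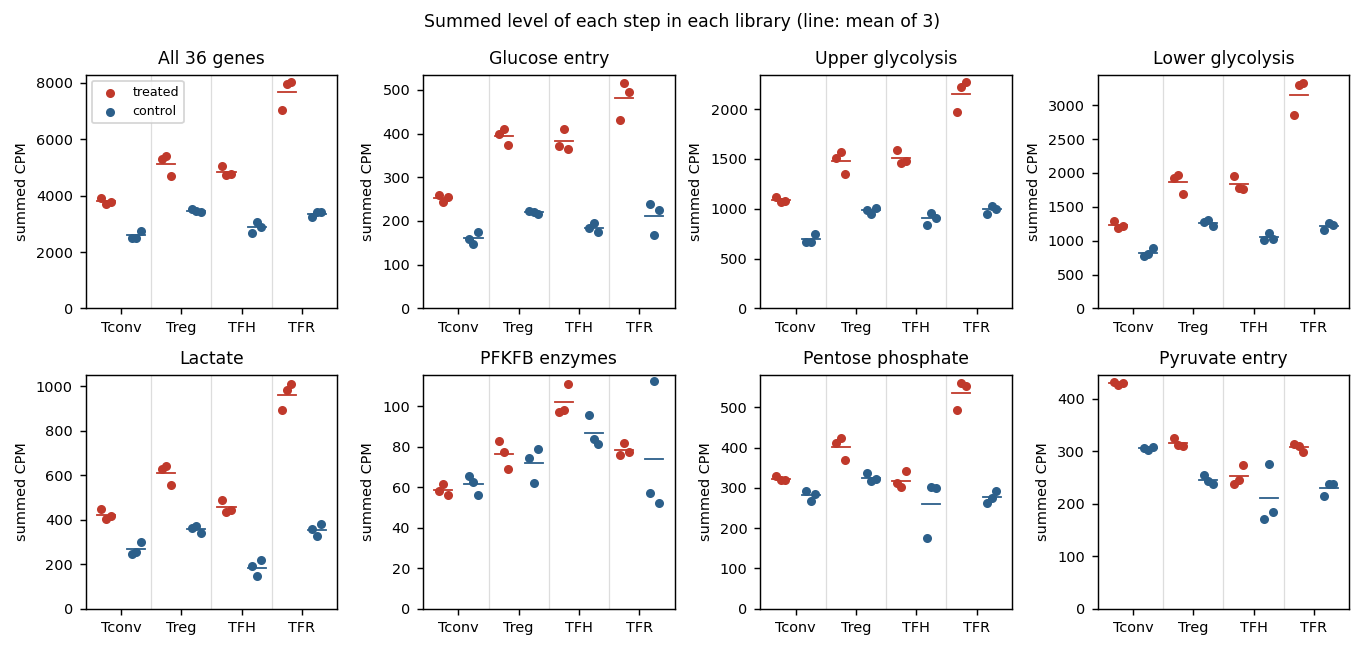
Summed normalised CPM of all 36 genes and of the genes of each step (y axes) in each library, with treated libraries left of control libraries in each subset and a line at the mean of 3. The sum of all 36 genes lies above the control libraries in each subset, while sums of the PFKFB enzymes overlap in Tconv, Treg and TFR cells. Sums of the pentose phosphate and of the pyruvate entry genes overlap in TFH cells.

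At glucose entry, transport and phosphorylation were covered by 4 genes, of which 1 in Tconv, 2 in Treg, 3 in TFH and 3 in TFR cells rose. Of all genes tested, 6.89, 5.17, 16.5 and 15.6% were higher in these subsets, in the same order. Slc2a1 (ENSMUSG00000028645.11, chr4:119108711-119137983, plus strand of mm10) encodes the glucose transporter GLUT1. It had 84.1, 79.4 and 83.4 CPM in treated Tconv libraries, against 32.8, 35.6 and 46.9 CPM in control Tconv libraries (log2 fold change 1.10 ± 0.20, edgeR adjusted p = 0.00053). Levels in Treg cells were 95.7, 96.9 and 85.3 CPM in treated Treg libraries, against 46.3, 42.3 and 47.3 CPM in control Treg libraries. Treated libraries stood above control ones in both subsets without overlap, with means 2.14-fold and 2.04-fold those of control, and the Treg difference passed as well (log2 fold change 1.03 ± 0.20, edgeR adjusted p = 0.0012). Slc2a1 had 117, 107 and 108 CPM in treated TFH libraries, against 62.2, 46.0 and 72.0 CPM in control TFH libraries. In TFR cells it had 104, 126 and 126 CPM in treated TFR libraries, against 60.0, 54.0 and 28.8 CPM in control TFR libraries. The groups stayed apart there too, with a log2 fold change of 0.87 in TFH (edgeR adjusted p = 0.0036) and 1.31 in TFR cells (edgeR adjusted p = 6.2e-05).

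Slc2a3, encoding the high-affinity transporter GLUT3, did not pass the test in any subset. It had 57.0, 60.4 and 58.0 CPM in treated Tconv libraries, against 30.3, 30.0 and 46.0 CPM in control Tconv libraries, and 108, 106 and 105 CPM in treated Treg libraries, against 47.9, 47.1 and 54.2 CPM in control Treg libraries. Slc2a3 also had 44.7, 47.2 and 41.3 CPM in treated TFH libraries, against 0.695, 38.6 and 10.8 CPM in control TFH libraries. TFR cells had 99.0, 123 and 114 CPM in treated TFR libraries, against 55.0, 13.4 and 55.3 CPM in control TFR libraries. No control library reached its treated group in any subset, but control follicular libraries were spread widely, with control TFH 1, control TFH 3 and control TFR 2 lowest. The log2 fold changes were 0.72, 1.10, 1.56 and 1.45 in Tconv, Treg, TFH and TFR cells (edgeR adjusted p = 0.071 to 0.5). The share of GLUT3 in the summed transcripts of both transporters, per kb of exon, did not move in 1 direction: the mean of the 4 subset differences was 0.405 percentage points (treated minus control, exact permutation test within subsets, p = 0.904, adjusted over 8 shares 0.904), with -5.10, 1.06, 4.21 and 1.45 points in Tconv, Treg, TFH and TFR cells.

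Hexokinases trap glucose as glucose 6-phosphate. Hk2 (ENSMUSG00000000628.10, chr6:82725025-82774454, minus strand), the inducible isozyme, rose in Treg, TFH and TFR cells. It had 49.9, 55.6 and 47.0 CPM in treated Treg libraries, against 14.9, 11.9 and 11.1 CPM in control Treg libraries (log2 fold change 2.005 ± 0.27, edgeR adjusted p = 1.9e-05). Follicular cells had 46.6, 57.9 and 44.1 CPM in treated TFH libraries, against 22.9, 19.7 and 10.9 CPM in control TFH libraries (log2 fold change 1.49 ± 0.27, edgeR adjusted p = 0.00041). In TFR cells there were 53.5, 66.5 and 64.5 CPM in treated TFR libraries, against 11.1, 10.8 and 18.6 CPM in control TFR libraries (log2 fold change 2.20 ± 0.27, edgeR adjusted p = 4.6e-06). Each treated library exceeded each control library, with mean levels 4.01, 2.77 and 4.56 times those of control. In Tconv cells Hk2 was low in both groups, with 7.73, 6.17 and 7.94 CPM in treated Tconv libraries, against 4.73, 3.75 and 5.01 CPM in control Tconv libraries, also without overlap but not past the test (log2 fold change 0.70 ± 0.26, edgeR adjusted p = 0.1).

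Hk1, the constitutive isozyme, rose in follicular cells. It had 164, 199 and 172 CPM in treated TFH libraries, against 98.9, 90.8 and 80.7 CPM in control TFH libraries (log2 fold change 0.99 ± 0.12, edgeR adjusted p = 3.1e-06). TFR cells had 174, 202 and 189 CPM in treated TFR libraries, against 112, 90.3 and 123 CPM in control TFR libraries (log2 fold change 0.80 ± 0.12, edgeR adjusted p = 3.4e-05). Treated libraries stood higher by a factor of 1.98 and 1.74. Levels in CXCR5-negative cells were 109.5, 98.04 and 105 CPM in treated Tconv libraries, against 91.3, 78.2 and 78.1 CPM in control Tconv libraries, and 146, 151 and 136 CPM in treated Treg libraries, against 114, 119.8 and 104 CPM in control Treg libraries. These groups did not overlap, and neither difference passed (log2 fold changes 0.34 and 0.36, edgeR adjusted p = 0.069 and 0.053).

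The balance of the hexokinase transcripts held more Hk2 with treatment. As a share of Hk1 plus Hk2 counts per kb of exon in 1 library, which does not depend on library scaling, Hk2 took 9.17, 8.25 and 9.75% in treated Tconv libraries, against 6.89, 6.41 and 8.40% in control Tconv libraries. Its share was 32.7, 34.5 and 33.1% in treated Treg libraries, against 15.8, 12.5 and 13.3% in control Treg libraries. In TFH cells Hk2 took 28.9, 29.3 and 26.9% in treated TFH libraries, against 24.9, 23.7 and 16.2% in control TFH libraries. In TFR cells the share was 30.6, 32.0 and 32.7% in treated TFR libraries, against 12.5, 14.6 and 17.7% in control TFR libraries. Groups stood apart in Treg, TFH and TFR cells, while in Tconv cells they overlapped through control Tconv 3. The mean difference over subsets was 11.3 percentage points (exact permutation test within subsets, two-sided, p = 2.5e-05, adjusted over 8 shares 0.00015), and the differences within subsets were 1.82, 19.6, 6.78 and 16.8 points in Tconv, Treg, TFH and TFR cells.

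**Figure D3:**
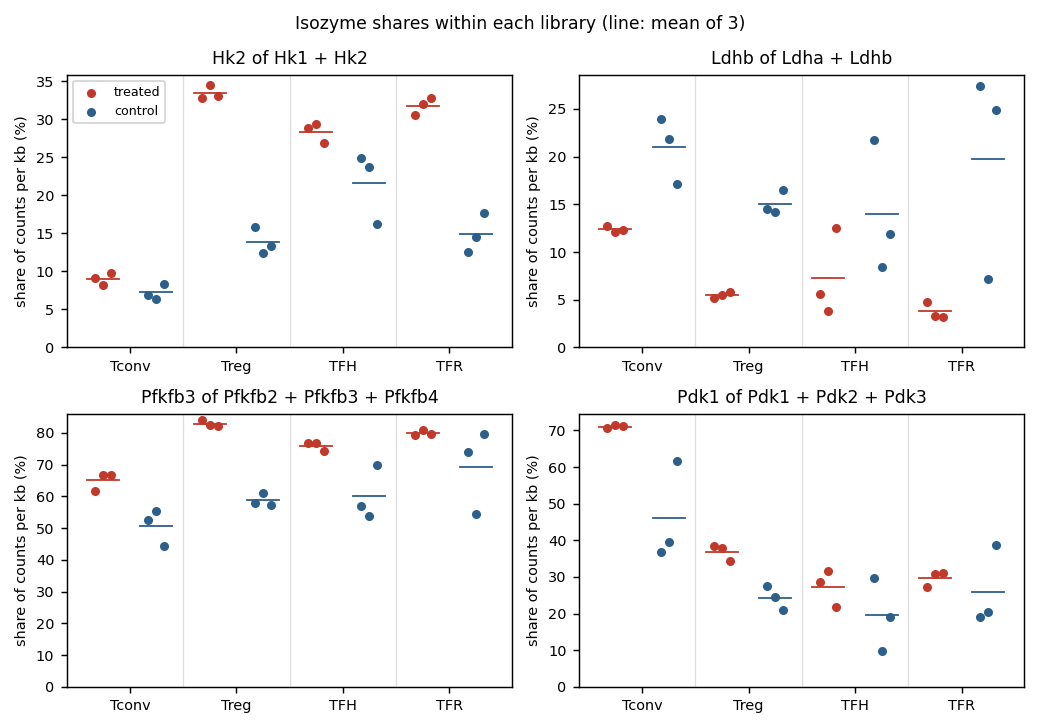
Share of 1 isozyme in the counts per kb of its isozyme group (y axes, percent) in each library, treated left of control in each subset, with a line at the mean of 3. Hk2 shares in treated Treg, TFH and TFR cells and Pfkfb3 shares in treated Tconv, Treg and TFH cells lie above every control library of the subset, and Ldhb shares in treated Tconv, Treg and TFR cells lie below.

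In the upper part of glycolysis, from glucose 6-phosphate to triose phosphates, the same 5 of 7 genes rose in each subset (71.4%): Gpi1, Pfkl, Pfkp, Aldoa and Tpi1. Among all genes tested, 6.89% in Tconv, 5.17% in Treg, 16.5% in TFH and 15.6% in TFR cells were higher. Tpi1 (ENSMUSG00000023456.14, chr6:124810586-124814296, minus strand) encodes triosephosphate isomerase and showed the largest fold change of the 12 genes that rose in every subset. Tpi1 had 51.8, 46.9 and 47.8 CPM in treated Tconv libraries, against 17.5, 15.4 and 16.2 CPM in control Tconv libraries (log2 fold change 1.58 ± 0.25, edgeR adjusted p = 0.0001). Treg cells had 191, 201 and 165 CPM in treated Treg libraries, against 42.0, 42.7 and 41.8 CPM in control Treg libraries (log2 fold change 2.14 ± 0.25, edgeR adjusted p = 2.9e-06). The Tconv and Treg groups were tight and far apart, with mean levels 2.99 and 4.40 times those of control. Tpi1 had 138, 131 and 132 CPM in treated TFH libraries, against 30.1, 14.7 and 56.4 CPM in control TFH libraries (log2 fold change 1.92 ± 0.25, edgeR adjusted p = 1.1e-05). The TFR values were 341, 382 and 397 CPM in treated TFR libraries, against 63.2, 61.2 and 43.8 CPM in control TFR libraries (log2 fold change 2.73 ± 0.26, edgeR adjusted p = 9e-08). Treated TFR libraries were the highest of all 24, and the control TFH libraries spread from 14.7 to 56.4 CPM. Processed copies of Tpi1 in the genome collected at most 1.16 CPM.

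Gpi1, glucose 6-phosphate isomerase, and Aldoa, the aldolase of muscle and most other cells, rose by smaller factors from higher levels. Gpi1 averaged 409.8 ± 37.6 CPM in treated TFR and 205 ± 13.8 CPM in control TFR libraries (log2 fold change 1.001 ± 0.10, edgeR adjusted p = 3.8e-07), and its log2 fold changes in Tconv, Treg and TFH cells were 0.43, 0.47 and 0.76. In Tconv cells that call was lost without control Tconv 1 (edgeR adjusted p = 0.053) and without control Tconv 2 (0.066). Aldoa had 419.6, 405 and 393 CPM in treated Tconv libraries, against 269, 280.3 and 260.1 CPM in control Tconv libraries (log2 fold change 0.59 ± 0.09, edgeR adjusted p = 4e-05). In Treg cells it had 576, 592 and 524 CPM in treated Treg libraries, against 436, 423 and 461 CPM in control Treg libraries (log2 fold change 0.36 ± 0.08, edgeR adjusted p = 0.0081). Every treated library was above every control library, by a factor of 1.51 and 1.28 in the means. Aldoa had 579.7, 518 and 567 CPM in treated TFH libraries, against 370.3, 425 and 386 CPM in control TFH libraries (log2 fold change 0.50 ± 0.09, edgeR adjusted p = 0.00026). Among TFR cells there were 815, 888 and 906 CPM in treated TFR libraries, against 398, 452 and 511 CPM in control TFR libraries (log2 fold change 0.94 ± 0.09, edgeR adjusted p = 6.3e-08). The TFR difference was a factor of 1.92, and the groups did not overlap in either follicular subset. Gpi1 shares 741 exonic bases with an antisense gene, and the strand setting of the counting is not given in the sources used here, so its reads and those of its partner cannot be told apart.

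Aldoc, the aldolase of brain, was scarce. It had 1.03, 0.949 and 0.919 CPM in treated Tconv libraries, against 0.875, 0.464 and 0.951 CPM in control Tconv libraries, and 5.32, 5.15 and 5.67 CPM in treated Treg libraries, against 0.806, 1.71 and 1.86 CPM in control Treg libraries. Aldoc had 3.60, 6.03 and 4.15 CPM in treated TFH libraries, against 0, 0 and 3.68 CPM in control TFH libraries. Levels in TFR cells were 10.3, 10.7 and 10.9 CPM in treated TFR libraries, against 0, 0.545 and 8.15 CPM in control TFR libraries. Treated Treg and TFR libraries were above all of their control libraries, and no difference passed (log2 fold changes 0.34, 1.88, 1.74 and 1.91, edgeR adjusted p = 0.27 to 0.93). The Aldoc share of aldolase transcripts was at most 1.40% in any library, with a mean difference of 0.388 points (exact permutation p = 0.0149, adjusted 0.0199) that did not hold without the libraries with kidney transcripts (0.377 points, adjusted p = 0.0642).

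Phosphofructokinase commits sugar to glycolysis, and 2 of its 3 subunit genes rose in every subset. Pfkp, the platelet subunit, had 282, 276 and 279 CPM in treated Tconv libraries, against 137, 140.2 and 177 CPM in control Tconv libraries (log2 fold change 0.88 ± 0.12, edgeR adjusted p = 1.8e-05). Treg cells had 258, 271 and 227 CPM in treated Treg libraries, against 174, 173 and 178 CPM in control Treg libraries (log2 fold change 0.53 ± 0.12, edgeR adjusted p = 0.0057). Both pairs of groups were apart, by a factor of 1.85 in Tconv and 1.44 in Treg cells. Pfkp had 379, 353 and 315 CPM in treated TFH libraries, against 161, 218 and 209 CPM in control TFH libraries (log2 fold change 0.83 ± 0.12, edgeR adjusted p = 3.9e-05). In TFR cells it had 267, 315 and 314 CPM in treated TFR libraries, against 169, 188 and 149 CPM in control TFR libraries (log2 fold change 0.82 ± 0.12, edgeR adjusted p = 3.9e-05). Treated libraries were higher in both follicular subsets without overlap. Its exons share 748 bases with antisense Pitrm1.

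Pfkl, the liver subunit, had 103, 97.7 and 103 CPM in treated Tconv libraries, against 69.3, 63.9 and 72.3 CPM in control Tconv libraries (log2 fold change 0.56 ± 0.12, edgeR adjusted p = 0.0036). Treg cells had 137, 138 and 111 CPM in treated Treg libraries, against 83.9, 74.6 and 78.6 CPM in control Treg libraries (log2 fold change 0.71 ± 0.12, edgeR adjusted p = 0.00047). Treated libraries were above control libraries in both, by a factor of 1.48 and 1.63. Pfkl had 144, 158 and 140.0 CPM in treated TFH libraries, against 102, 86.5 and 72.9 CPM in control TFH libraries (log2 fold change 0.76 ± 0.13, edgeR adjusted p = 0.00016). TFR cells had 153, 185 and 185 CPM in treated TFR libraries, against 108, 97.3 and 83.9 CPM in control TFR libraries (log2 fold change 0.85 ± 0.12, edgeR adjusted p = 3.6e-05). Again no control library reached a treated one.

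Pfkm, the muscle subunit, stayed low. It had 12.1, 10.8 and 9.30 CPM in treated Tconv libraries, against 9.66, 12.8 and 5.42 CPM in control Tconv libraries, and 15.4, 15.9 and 14.8 CPM in treated Treg libraries, against 12.6, 11.5 and 9.76 CPM in control Treg libraries. Pfkm had 15.3, 11.7 and 21.7 CPM in treated TFH libraries, against 1.22, 20.9 and 15.2 CPM in control TFH libraries. The TFR values were 16.9, 12.9 and 16.6 CPM in treated TFR libraries, against 19.6, 10.8 and 6.44 CPM in control TFR libraries. Groups overlapped except in Treg cells, and no log2 fold change passed (0.21, 0.44, 0.40 and 0.33, edgeR adjusted p = 0.64 to 0.91). The Pfkp share of the 3 subunits lay between 36.5 and 53.6% in all libraries, and its mean difference of 1.99 points did not pass (exact permutation p = 0.14, adjusted 0.16).

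The PFKFB enzymes make and remove fructose 2,6-bisphosphate, the strongest activator of phosphofructokinase, and their genes differed in the direction of their values. Pfkfb4 (ENSMUSG00000025648.17, chr9:108991778-109032228, plus strand) had 5.76, 5.19 and 4.92 CPM in treated Treg libraries, against 17.1, 15.6 and 19.3 CPM in control Treg libraries (log2 fold change -1.71 ± 0.44, edgeR adjusted p = 0.014). Treated Treg libraries were at 0.305 of the control mean without overlap, and this fall was the 1 lower call of the 36 genes over the 4 subsets. It did not pass when treated Treg 1, 2 or 3 or control Treg 3 was left out (edgeR adjusted p = 0.053 to 0.072, log2 fold change -1.77 to -1.62). Pfkfb4 had 11.1, 8.66 and 8.30 CPM in treated Tconv libraries, against 18.7, 17.3 and 19.05 CPM in control Tconv libraries. In follicular cells it had 11.1, 12.1 and 13.3 CPM in treated TFH libraries, against 29.4, 17.8 and 10.2 CPM in control TFH libraries, and 7.08, 8.25 and 8.39 CPM in treated TFR libraries, against 10.3, 30.9 and 7.20 CPM in control TFR libraries. The Tconv groups did not overlap and the follicular ones did, with log2 fold changes of -0.97, -0.65 and -1.03 in Tconv, TFH and TFR cells that did not pass (edgeR adjusted p = 0.091 to 0.27).

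Pfkfb3, the isozyme with the highest kinase activity of the family, rose in TFH cells. It had 79.6, 81.0 and 88.1 CPM in treated TFH libraries, against 64.0, 50.6 and 61.0 CPM in control TFH libraries (log2 fold change 0.50 ± 0.16, edgeR adjusted p = 0.033), apart in all libraries. That call was lost in 4 of 6 fits with 1 library left out (without treated TFH 1, 2 or 3 or control TFH 2, edgeR adjusted p = 0.061 to 0.10). Pfkfb3 had 40.0, 44.5 and 40.7 CPM in treated Tconv libraries, against 39.9, 40.1 and 29.6 CPM in control Tconv libraries. The Treg values were 72.4, 66.5 and 59.0 CPM in treated Treg libraries, against 48.6, 43.3 and 51.6 CPM in control Treg libraries, and in TFR cells 63.5, 70.3 and 65.7 CPM in treated TFR libraries, against 46.6, 70.7 and 44.9 CPM in control TFR libraries. Treg groups were apart, Tconv and TFR groups overlapped, and none of the 3 passed (edgeR adjusted p = 0.083 to 0.55).

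Pfkfb2, the isozyme of heart, had the lowest mean level of the 3 per kb of exon in each of the 8 groups. It had 7.23, 8.45 and 7.04 CPM in treated Tconv libraries, against 6.88, 5.32 and 7.35 CPM in control Tconv libraries, and 4.62, 5.97 and 4.996 CPM in treated Treg libraries, against 8.61, 3.27 and 8.23 CPM in control Treg libraries. Pfkfb2 had 6.57, 5.30 and 9.52 CPM in treated TFH libraries, against 2.43, 15.5 and 9.94 CPM in control TFH libraries. Among TFR cells there were 5.37, 3.59 and 3.55 CPM in treated TFR libraries, against 0.484, 10.9 and 0.189 CPM in control TFR libraries. All 4 pairs of groups overlapped (edgeR adjusted p = 0.78 to 0.95), and 1262 of its exonic bases are shared with an overlapping gene of the same strand. Per kb, Pfkfb3 took 84.0, 82.3 and 82.1% in treated Treg libraries, against 57.8, 61.1 and 57.3% in control Treg libraries, as a share of the 3 genes. Its share was 61.8, 66.7 and 66.8% in treated Tconv libraries, against 52.5, 55.3 and 44.3% in control Tconv libraries. In follicular cells the share was 76.8, 76.9 and 74.2% in treated TFH libraries, against 57.1, 53.7 and 70.0% in control TFH libraries, and 79.3, 81.0 and 79.7% in treated TFR libraries, against 73.9, 54.4 and 79.8% in control TFR libraries. Tconv, Treg and TFH groups were apart, TFR groups overlapped through control TFR 3, and the mean difference over subsets was 16.2 points (exact permutation p = 3.75e-05, adjusted 0.00015).

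The lower part of glycolysis, from glyceraldehyde 3-phosphate to pyruvate, held 8 genes, of which 5 in Tconv, 5 in Treg, 5 in TFH and 6 in TFR cells rose and 0 fell. Shares of all genes tested that were higher were 6.89, 5.17, 16.5 and 15.6% in that order. Eno1 (ENSMUSG00000063524.13, chr4:150236721-150248879, plus strand), the enolase of most cells, had 269, 244 and 271 CPM in treated Tconv libraries, against 112, 115 and 124 CPM in control Tconv libraries (log2 fold change 1.16 ± 0.23, edgeR adjusted p = 0.0012). Among Treg cells there were 329, 326 and 288 CPM in treated Treg libraries, against 157, 153 and 139 CPM in control Treg libraries (log2 fold change 1.07 ± 0.23, edgeR adjusted p = 0.0032). Treated libraries were apart from control ones in both subsets, with ratios of the means of 2.24 and 2.10. Eno1 had 228, 225 and 220.4 CPM in treated TFH libraries, against 73.2, 27.0 and 83.3 CPM in control TFH libraries (log2 fold change 1.83 ± 0.24, edgeR adjusted p = 9.1e-06). Levels in TFR cells were 373, 428 and 429 CPM in treated TFR libraries, against 126, 136 and 78.1 CPM in control TFR libraries (log2 fold change 1.85 ± 0.23, edgeR adjusted p = 5.8e-06). The follicular ratios were 3.67 and 3.62, with control TFH 2 the lowest of all libraries. A near-identical gene, Eno1b, collected 0 to 46.8 CPM and up to 29.1% of the reads of both, so the level of Eno1 alone is uncertain.

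Eno2, the enolase of neurons, and Eno3, that of muscle, were minor. Eno3 rose in Treg cells, with 11.7, 14.5 and 10.8 CPM in treated Treg libraries, against 3.89, 7.77 and 4.71 CPM in control Treg libraries (log2 fold change 1.17 ± 0.35, edgeR adjusted p = 0.037), and it also rose in TFR cells. It had 23.2, 28.1 and 26.8 CPM in treated TFR libraries, against 7.84, 6.65 and 12.5 CPM in control TFR libraries (log2 fold change 1.54 ± 0.35, edgeR adjusted p = 0.0031). Groups were apart in both, and the Treg call was lost in 5 of 6 fits with 1 library left out (all but the one without control Treg 2, edgeR adjusted p = 0.07 to 0.18). Eno3 averaged 9.56 ± 0.875 CPM in treated and 5.80 ± 0.780 CPM in control libraries of Tconv cells, and 9.26 ± 1.49 CPM in treated and 9.12 ± 0.923 CPM in control TFH libraries, neither past the test. Eno2 passed in no subset (log2 fold changes 0.24, 0.65, -0.41 and 0.91, edgeR adjusted p = 0.24 to 0.88).

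Pgam1, phosphoglycerate mutase, rose in all 4 subsets. It had 52.5, 50.4 and 48.4 CPM in treated Treg libraries, against 17.4, 22.95 and 20.6 CPM in control Treg libraries (log2 fold change 1.31 ± 0.18, edgeR adjusted p = 2.6e-05), without overlap. In Tconv, TFH and TFR cells its log2 fold changes were 0.77 ± 0.18, 1.04 ± 0.18 and 1.49 ± 0.18, and 2 copies in the genome took up to 15.4% of the reads of gene and copies together. Pgk1, phosphoglycerate kinase, which makes the first ATP of the pathway, averaged 329 ± 23.3 CPM in treated TFR and 106 ± 7.22 CPM in control TFR libraries (log2 fold change 1.63 ± 0.16, edgeR adjusted p = 1.8e-07). Its log2 fold changes in Tconv, Treg and TFH cells were 0.52, 0.92 and 0.82, and the Tconv call (edgeR adjusted p = 0.035) was lost without any 1 of the 6 Tconv libraries (0.064 to 0.13). Pkm, pyruvate kinase, averaged 1215 ± 133 CPM in treated TFR and 509.5 ± 78.0 CPM in control TFR libraries (log2 fold change 1.25 ± 0.11, edgeR adjusted p = 2.5e-08), with log2 fold changes of 0.45, 0.52 and 0.83 in the other 3 subsets. Gene counts do not separate its splice forms, and 767 of its exonic bases are shared with an overlapping gene of the same strand.

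Gapdh, glyceraldehyde 3-phosphate dehydrogenase, which is often used as a reference transcript, was not constant. It had 964, 1081 and 1093 CPM in treated TFR libraries, against 404, 473 and 373 CPM in control TFR libraries (log2 fold change 1.33 ± 0.10, edgeR adjusted p = 3.2e-09). TFH cells had 715, 625 and 617 CPM in treated TFH libraries, against 426, 435 and 399 CPM in control TFH libraries (log2 fold change 0.63 ± 0.10, edgeR adjusted p = 8e-05). In Tconv cells there were 396, 375 and 367 CPM in treated Tconv libraries, against 250.4, 262 and 323 CPM in control Tconv libraries (log2 fold change 0.45 ± 0.10, edgeR adjusted p = 0.0034). Groups were apart in all of these, by a factor of 2.51 in TFR, 1.55 in TFH and 1.36 in Tconv cells. The 2 lower control Tconv libraries hold kidney transcripts. Without the libraries that hold them, which leaves 1 control Tconv library, the Tconv log2 fold change was 0.24. Levels in Treg cells were 629, 638 and 568 CPM in treated Treg libraries, against 489.8, 510.3 and 501 CPM in control Treg libraries, also apart but not past the test (log2 fold change 0.29 ± 0.10, edgeR adjusted p = 0.07). Bpgm, which diverts a glycolytic intermediate to 2,3-bisphosphoglycerate, passed in no subset (log2 fold changes 0.24, -0.61, -0.22 and 0.43, edgeR adjusted p = 0.26 to 0.73). In Treg cells it averaged 22.8 ± 1.39 CPM in treated and 34.8 ± 3.64 CPM in control libraries, with the treated libraries all lower.

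**Figure D4:**
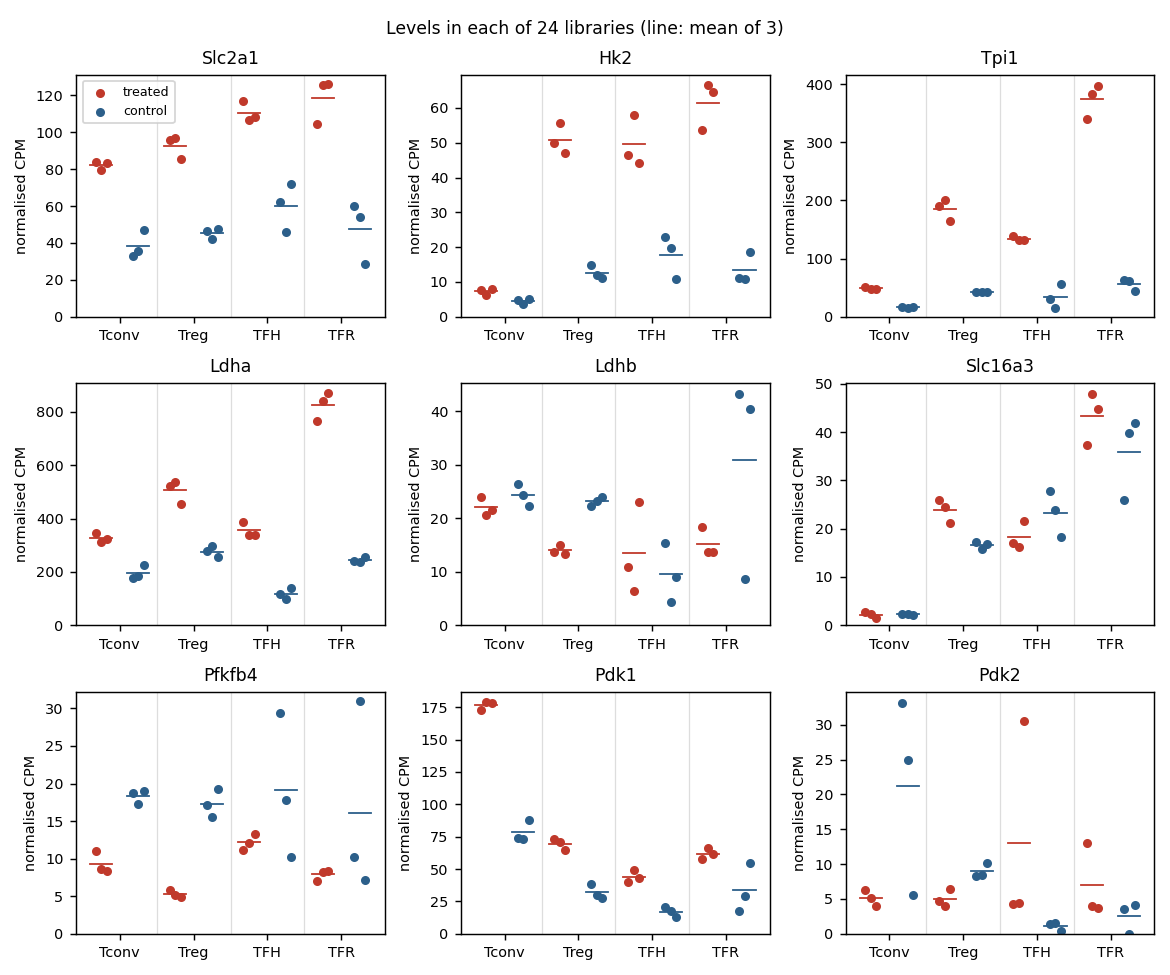
Normalised CPM (y axes, starting at 0) of 9 genes in each of the 24 libraries, treated left of control in each subset, with a line at the mean of 3. Tpi1 and Ldha are highest in the treated TFR libraries, Pfkfb4 is lower in treated than in control Treg libraries, and the high Pdk2 points in control Tconv and treated TFH cells are libraries that hold kidney transcripts.

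Of the 4 lactate genes, Ldha rose in all 4 subsets and Ldhb in none. Ldha (ENSMUSG00000063229.15, chr7:46841475-46855627, plus strand) encodes the A subunit of lactate dehydrogenase, which favours the reduction of pyruvate to lactate. It had 348, 314 and 324 CPM in treated Tconv libraries, against 177, 184 and 227 CPM in control Tconv libraries (log2 fold change 0.74 ± 0.11, edgeR adjusted p = 8.3e-05). Treg cells had 524, 539 and 454 CPM in treated Treg libraries, against 278, 295 and 255 CPM in control Treg libraries (log2 fold change 0.87 ± 0.11, edgeR adjusted p = 1.5e-05). Groups were apart, by a factor of 1.68 in Tconv and 1.83 in Treg cells. Ldha had 386, 339.8 and 340.1 CPM in treated TFH libraries, against 116, 97.0 and 140.4 CPM in control TFH libraries (log2 fold change 1.58 ± 0.12, edgeR adjusted p = 3e-09). In TFR cells it had 765, 843 and 869.6 CPM in treated TFR libraries, against 242, 238 and 257 CPM in control TFR libraries (log2 fold change 1.75 ± 0.12, edgeR adjusted p = 5.9e-10). Ratios in follicular cells were 3.01 and 3.36, and the treated TFR libraries were the highest and the control TFH libraries the lowest of all 24.

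Ldhb (ENSMUSG00000030246.11, chr6:142490249-142507957, minus strand) encodes the B subunit, which favours the oxidation of lactate. It had 24.01, 20.6 and 21.6 CPM in treated Tconv libraries, against 26.4, 24.4 and 22.2 CPM in control Tconv libraries. In Treg cells it had 13.6, 14.9 and 13.3 CPM in treated Treg libraries, against 22.4, 23.2 and 23.9 CPM in control Treg libraries. Tconv groups overlapped and Treg groups did not, with the treated libraries lower (log2 fold changes -0.14 and -0.73, edgeR adjusted p = 0.93 and 0.47). Ldhb had 10.8, 6.48 and 23.1 CPM in treated TFH libraries, against 15.3, 4.25 and 8.99 CPM in control TFH libraries. TFR cells had 18.4, 13.6 and 13.7 CPM in treated TFR libraries, against 43.3, 8.71 and 40.4 CPM in control TFR libraries. Both pairs overlapped (edgeR adjusted p = 0.49 and 0.14), and the highest treated TFH library is the one with kidney transcripts.

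The make-up of lactate dehydrogenase transcripts held less of the B subunit with treatment. Per kb, Ldhb made up 12.7, 12.1 and 12.3% in treated Tconv libraries, against 23.9, 21.8 and 17.2% in control Tconv libraries. Its share was 5.19, 5.52 and 5.84% in treated Treg libraries, against 14.5, 14.2 and 16.5% in control Treg libraries. Treated shares were well below all control shares in both subsets. In TFH cells the share was 5.57, 3.87 and 12.5% in treated TFH libraries, against 21.7, 8.46 and 11.9% in control TFH libraries. In TFR cells it was 4.81, 3.30 and 3.22% in treated TFR libraries, against 27.4, 7.17 and 24.9% in control TFR libraries. TFR groups were apart, TFH groups overlapped, and the mean difference over subsets was -10.2 points (exact permutation p = 7.5e-05, adjusted 0.0002), with -8.59, -9.57, -6.70 and -16.0 points in Tconv, Treg, TFH and TFR cells.

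Sequences upstream of the RefSeq transcription start are shown for Ldha and Ldhb because Ldha rose with treatment in all 4 subsets and Ldhb passed in none of them, for Tpi1 because it rose most among the genes raised in all subsets, and for Pfkfb4 because it was the gene that fell. Each is the 250 bases before the start in GRCm38.p6, 5′ to 3′ on the gene's strand, with matches to ACGTG (the core of hypoxia response elements), GCGTG or CACGTG (the E-box bound by MYC with MAX), on either strand, in capitals. They lie at chr7:46845554-46845803, plus strand for Ldha, chr6:142507958-142508207, minus strand for Ldhb, chr6:124814159-124814408, minus strand for Tpi1 and chr9:108991652-108991901, plus strand for Pfkfb4. The first listed start of each gene was used. Ldha has 2 listed starts, and its window lies inside the gene span given above. The Tpi1 and Pfkfb4 windows overlap the 5′ ends of their gene spans.
Ldha: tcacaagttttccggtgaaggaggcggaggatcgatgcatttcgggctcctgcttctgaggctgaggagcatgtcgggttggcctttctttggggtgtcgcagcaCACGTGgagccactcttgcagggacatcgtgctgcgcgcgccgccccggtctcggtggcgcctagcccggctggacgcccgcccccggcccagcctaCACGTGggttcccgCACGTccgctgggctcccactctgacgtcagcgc
Ldhb: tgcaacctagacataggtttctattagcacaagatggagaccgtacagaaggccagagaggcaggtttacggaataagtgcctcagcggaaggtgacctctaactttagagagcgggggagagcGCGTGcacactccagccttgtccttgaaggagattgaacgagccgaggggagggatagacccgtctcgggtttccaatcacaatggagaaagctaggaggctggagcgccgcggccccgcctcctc
Tpi1: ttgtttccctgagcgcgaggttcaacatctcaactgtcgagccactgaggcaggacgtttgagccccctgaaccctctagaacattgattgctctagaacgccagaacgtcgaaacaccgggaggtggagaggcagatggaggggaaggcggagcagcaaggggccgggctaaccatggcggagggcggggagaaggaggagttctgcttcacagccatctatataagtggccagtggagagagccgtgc
Pfkfb4: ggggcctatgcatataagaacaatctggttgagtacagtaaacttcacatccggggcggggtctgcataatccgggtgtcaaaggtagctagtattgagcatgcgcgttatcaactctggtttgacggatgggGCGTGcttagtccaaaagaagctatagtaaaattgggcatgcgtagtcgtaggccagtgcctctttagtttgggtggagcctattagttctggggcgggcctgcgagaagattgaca
The Ldha window holds 5 matches to ACGTG over both strands, 4 of them in its 2 CACGTG sites since each such site reads ACGTG on both strands. Ldhb and Pfkfb4 each hold 1 GCGTG and no ACGTG, and Tpi1 holds none of the 3 words. Over the 35 of 36 genes with a window, ACGTG was found in 12 (34.3%), GCGTG in 21 (60.0%) and CACGTG in 5 (14.3%), where 16.6%, 28.2% and 6.05% of the 27025 mouse windows of the same length held them. A match is a description of letters and not of binding, and base composition differs between promoters.

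Lactate and pyruvate cross the membrane through the monocarboxylate transporters MCT1 (Slc16a1), which can carry it either way, and MCT4 (Slc16a3), which mainly exports lactate. Slc16a1 had 72.5, 68.2 and 70.5 CPM in treated Tconv libraries, against 40.9, 43.6 and 50.01 CPM in control Tconv libraries (log2 fold change 0.65 ± 0.20, edgeR adjusted p = 0.037). Treg cells had 64.5, 63.2 and 65.0 CPM in treated Treg libraries, against 44.5, 38.7 and 46.0 CPM in control Treg libraries (log2 fold change 0.58 ± 0.20, edgeR adjusted p = 0.075). Groups were apart in both, but the Treg difference did not pass and the Tconv call was lost in 5 of 6 fits with 1 library left out (all but the one without control Tconv 3, edgeR adjusted p = 0.087 to 0.15). Slc16a1 had 76.3, 72.7 and 57.9 CPM in treated TFH libraries, against 30.9, 21.2 and 51.3 CPM in control TFH libraries (log2 fold change 0.97 ± 0.20, edgeR adjusted p = 0.0015). The TFR values were 71.5, 79.5 and 79.1 CPM in treated TFR libraries, against 46.4, 39.4 and 41.5 CPM in control TFR libraries (log2 fold change 0.85 ± 0.20, edgeR adjusted p = 0.0036). Treated follicular libraries were all above their control libraries.

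Slc16a3 (ENSMUSG00000025161.16, chr11:120948480-120960868, plus strand) passed with treatment in no subset. It had 2.82, 2.37 and 1.42 CPM in treated Tconv libraries, against 2.35, 2.39 and 2.15 CPM in control Tconv libraries, and 25.9, 24.4 and 21.1 CPM in treated Treg libraries, against 17.2, 15.8 and 16.8 CPM in control Treg libraries. Slc16a3 had 16.9, 16.1 and 21.5 CPM in treated TFH libraries, against 27.8, 23.95 and 18.2 CPM in control TFH libraries. Among TFR cells there were 37.4, 47.8 and 44.9 CPM in treated TFR libraries, against 25.95, 39.9 and 41.9 CPM in control TFR libraries. Only the Treg groups were apart, and the log2 fold changes were -0.06, 0.52, -0.35 and 0.27 (edgeR adjusted p = 0.3 to 0.95). As a share of both transporters its mean difference was -7.81 points (treated minus control, exact permutation p = 0.00485, adjusted 0.00776), mostly in TFH (-19.7 points) and TFR cells (-9.12 points). With every library thinned to 2537901 counts the difference was -5.84 points and did not pass (adjusted p = 0.107).

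The pentose phosphate genes rose together in TFR cells, where 4 of 4 passed, against 0 of 4 in Tconv and Tkt alone in Treg and TFH cells. The share of all genes tested that were higher differed too, at 15.6% in TFR, 6.89% in Tconv, 5.17% in Treg and 16.5% in TFH cells. When the effect in TFR minus that in Treg cells was tested directly, G6pdx and Taldo1 passed and Pgd and Tkt did not. Those 2 calls were lost in 11 and 10 of 12 fits with 1 library left out. G6pdx, glucose 6-phosphate dehydrogenase, which opens the pathway and overlaps antisense Ikbkg by 418 exonic bases, had 73.9, 82.8 and 74.0 CPM in treated TFR libraries, against 43.8, 47.6 and 42.1 CPM in control TFR libraries (log2 fold change 0.79 ± 0.16, edgeR adjusted p = 0.0011). Pgd, phosphogluconate dehydrogenase, which makes more NADPH at a later step, had 57.1, 71.5 and 69.8 CPM in treated TFR libraries, against 26.1, 30.3 and 55.5 CPM in control TFR libraries (log2 fold change 0.83 ± 0.26, edgeR adjusted p = 0.027). Taldo1, transaldolase, had 96.6, 106 and 110.2 CPM in treated TFR libraries, against 63.8, 68.0 and 49.5 CPM in control TFR libraries (log2 fold change 0.79 ± 0.16, edgeR adjusted p = 0.0012). Treated TFR libraries were above control in all 3, most narrowly for Pgd, whose call was lost in 4 of 6 fits with 1 library left out (without treated TFR 2 or 3 or control TFR 1 or 2, edgeR adjusted p = 0.072 to 0.11).

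Tkt, transketolase, which returns sugars to glycolysis, had 265, 300.4 and 299 CPM in treated TFR libraries, against 129.8, 128 and 145 CPM in control TFR libraries (log2 fold change 1.10 ± 0.17, edgeR adjusted p = 6.6e-05). TFH cells had 134, 127 and 159.7 CPM in treated TFH libraries, against 51.3, 73.0 and 111 CPM in control TFH libraries (log2 fold change 0.82 ± 0.17, edgeR adjusted p = 0.0016). The Treg values were 219, 229 and 197 CPM in treated Treg libraries, against 138, 139 and 139.6 CPM in control Treg libraries (log2 fold change 0.63 ± 0.17, edgeR adjusted p = 0.018). Groups were apart in these subsets, and the Treg call was lost in 5 of 6 fits with 1 library left out (all but the one without treated Treg 3, edgeR adjusted p = 0.06 to 0.078). The first 3 genes had log2 fold changes of -0.18 to 0.33 in Tconv, -0.12 to 0.04 in Treg and -0.15 to 0.21 in TFH cells, none past the test. In Tconv cells Tkt had 146, 141 and 140 CPM in treated libraries, against 130, 120 and 107 CPM in control libraries. Tkt and Taldo1 were higher there without overlap, although neither passed.

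At pyruvate entry to mitochondria, Pdk1 rose in all 4 subsets. Pyruvate dehydrogenase kinases switch off the dehydrogenase that feeds pyruvate to the citric acid cycle. Pdk1 (ENSMUSG00000006494.11, chr2:71873224-71903858, plus strand) had 173, 179 and 178 CPM in treated Tconv libraries, against 74.1, 73.3 and 87.7 CPM in control Tconv libraries (log2 fold change 1.17 ± 0.25, edgeR adjusted p = 0.0027). Among Treg cells there were 73.2, 70.5 and 64.9 CPM in treated Treg libraries, against 38.3, 30.0 and 27.5 CPM in control Treg libraries (log2 fold change 1.12 ± 0.25, edgeR adjusted p = 0.0049). Groups were apart, and the treated Tconv libraries were by far the highest of all 24. Pdk1 had 39.9, 49.2 and 43.2 CPM in treated TFH libraries, against 20.5, 17.8 and 12.7 CPM in control TFH libraries (log2 fold change 1.39 ± 0.27, edgeR adjusted p = 0.0007). Levels in TFR cells were 57.8, 66.0 and 61.6 CPM in treated TFR libraries, against 17.9, 29.3 and 55.0 CPM in control TFR libraries (log2 fold change 0.87 ± 0.25, edgeR adjusted p = 0.016). The TFR groups were separated by little, with control TFR 3 close to treated TFR 1, and that call was lost without treated TFR 2, control TFR 1 or control TFR 2 (edgeR adjusted p = 0.051 to 0.07).

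Pdk2 passed in TFH cells, but not without treated TFH 3 or control TFH 3. It had 4.26, 4.43 and 30.5 CPM in treated TFH libraries, against 1.39, 1.55 and 0.408 CPM in control TFH libraries (log2 fold change 3.66 ± 1.10, edgeR adjusted p = 0.021), and treated TFH 3, which is far above the other two, holds kidney transcripts. Without it the log2 fold change was 2.07 and did not pass (edgeR adjusted p = 0.18), and without control TFH 3 it was 3.16 (0.073). In Tconv cells Pdk2 had 6.35, 5.10 and 4.04 CPM in treated Tconv libraries, against 33.1, 25.0 and 5.51 CPM in control Tconv libraries. The high values there are control Tconv 1 and 2, which hold kidney transcripts as well. Pdk2 had 4.64, 3.92 and 6.42 CPM in treated Treg libraries, against 8.28, 8.46 and 10.2 CPM in control Treg libraries. In TFR cells it had 13.1, 4.05 and 3.69 CPM in treated TFR libraries, against 3.58, 0 and 4.17 CPM in control TFR libraries, where treated TFR 1 is the library with kidney transcripts. None of these 3 passed (edgeR adjusted p = 0.19 to 0.74).

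Pdk3 passed in no subset. It had 18.6, 19.4 and 20.6 CPM in treated Tconv libraries, against 15.03, 16.7 and 13.6 CPM in control Tconv libraries, and 35.0, 34.8 and 35.6 CPM in treated Treg libraries, against 26.6, 23.8 and 25.7 CPM in control Treg libraries. Pdk3 had 29.4, 31.6 and 26.2 CPM in treated TFH libraries, against 14.8, 53.3 and 17.4 CPM in control TFH libraries. TFR cells had 40.2, 45.3 and 41.9 CPM in treated TFR libraries, against 22.4, 37.5 and 25.4 CPM in control TFR libraries. Treated libraries were all above control ones in Tconv, Treg and TFR cells and not in TFH cells (edgeR adjusted p = 0.2 to 0.91). The Pdk1 share of the 3 kinases was 38.4, 38.0 and 34.4% in treated Treg libraries, against 27.5, 24.4 and 21.1% in control Treg libraries, per kb. In Tconv cells it was 70.6, 71.4 and 71.1% in treated Tconv libraries, against 36.8, 39.5 and 61.5% in control Tconv libraries, with both kidney libraries lowest. Over the 4 subsets the mean difference was 12.3 points (exact permutation p = 0.00134, adjusted 0.00267), with 25.1, 12.6, 7.78 and 3.75 points in Tconv, Treg, TFH and TFR cells. Shares overlapped in TFH and TFR cells.

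Pdha1, the catalytic subunit of pyruvate dehydrogenase that these kinases act on, overlaps antisense Map3k15 by 603 exonic bases. It averaged 151 ± 3.86 CPM in treated TFR and 113 ± 18.6 CPM in control TFR libraries (log2 fold change 0.42 ± 0.13, edgeR adjusted p = 0.022). That call was lost without treated TFR 1, treated TFR 2 or control TFR 3 (edgeR adjusted p = 0.053 to 0.10), and in the other subsets the log2 fold change was 0.05 to 0.31. The mitochondrial pyruvate carrier genes Mpc1 and Mpc2 passed in no subset. Their log2 fold changes ran from -0.30 to -0.07 for Mpc1 and from -0.09 to 0.34 for Mpc2.

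The difference between follicular and non-follicular cells in the treated-against-control difference was tested directly. For the effect in TFR minus that in Treg cells the test gave 7 higher and 0 lower of the 36 genes, where 5.24% of all genes tested were higher and 2.26% lower. The 7 were Gpi1, Aldoa, Gapdh, Pkm, Ldha, G6pdx and Taldo1. For Gapdh the effects differed by 1.04 ± 0.14 log2 units (edgeR adjusted p = 0.00011), and the libraries behind it are those given above. For Ldha they differed by 0.88 ± 0.16 (edgeR adjusted p = 0.002). The differences for Gpi1, G6pdx and Taldo1 were lost in 7, 11 and 10 of 12 fits with 1 library left out, while Aldoa, Gapdh, Pkm and Ldha passed in every one.

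For the effect in TFH minus that in Tconv cells the test gave 3 higher and 0 lower of the 36 genes, where 14.4% of all genes tested were higher and 5.22% lower, so that the share of the 36 genes lay below that of all genes. The 3 were Hk1 (0.65 ± 0.16, edgeR adjusted p = 0.012), Ldha (0.84 ± 0.16, edgeR adjusted p = 0.0022) and Pdk2 (5.69 ± 1.46, edgeR adjusted p = 0.014). Without the libraries that hold kidney transcripts Ldha alone passed (1.07, edgeR adjusted p = 0.0038), Hk1 did not (0.59, 0.24) and Pdk2 did not (2.16, 0.62). Without treated TFH 3 alone the Pdk2 difference was 4.11 (0.061). The count was 5 without control TFH 2 and 8 without control TFH 3.

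Against Tconv cells, the largest differences belonged to Slc16a3, apart from Pdk2 in control TFH against Tconv cells. In treated mice it averaged 23.8 ± 2.48 CPM in Treg and 2.20 ± 0.716 CPM in Tconv libraries (log2 fold change 3.43 ± 0.29, edgeR adjusted p = 1.7e-08), a ratio of 10.8. In control mice the averages were 16.6 ± 0.738 CPM in Treg and 2.30 ± 0.125 CPM in Tconv libraries (log2 fold change 2.85 ± 0.29, edgeR adjusted p = 2.5e-07). TFH libraries averaged 18.2 ± 2.92 CPM in treated and 23.3 ± 4.81 CPM in control mice, again above Tconv without overlap (3.04 and 3.34 on the log2 scale, edgeR adjusted p = 5.9e-08 and 1.9e-08). Tconv cells of both treatments had little of this lactate exporter.

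Treg against Tconv cells of treated mice gave 14 higher and 1 lower of the 36 genes, where 6.37% of all genes tested were higher and 5.54% lower. In control mice this gave 11 higher and 1 lower of the 36 genes, where 5.9% of all genes tested were higher and 3.4% lower. Hk2 was higher in Treg cells of treated mice (log2 fold change 2.80 ± 0.28, edgeR adjusted p = 1.5e-07), a ratio of 6.98 between the means. In control mice Eno2 had 4.88, 10.9 and 7.73 CPM in Treg and 2.03, 1.96 and 1.46 CPM in Tconv libraries, apart in all (log2 fold change 2.11 ± 0.57, edgeR adjusted p = 0.019), a call lost in 4 of 6 fits with 1 library left out (all but those without control Treg 1 or 3, edgeR adjusted p = 0.062 to 0.093). Pdk1 was the gene that was lower in Treg cells, with log2 fold change -1.34 ± 0.25, edgeR adjusted p = 0.00055 in treated mice and log2 fold change -1.29 ± 0.25, edgeR adjusted p = 0.0012 in control mice. Without the libraries with kidney transcripts, 5 of 12 calls in control mice and 14 of 15 in treated mice remained.

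TFH against Tconv cells of treated mice gave 13 higher and 2 lower of the 36 genes, where 10.3% of all genes tested were higher and 7.77% lower. Control mice gave 10 higher and 5 lower of the 36 genes, where 9.89% of all genes tested were higher and 15.1% lower. In treated mice Hk2 was higher in TFH cells (log2 fold change 2.77 ± 0.27, edgeR adjusted p = 1.3e-07), and Pdk1 (log2 fold change -2.002 ± 0.26, edgeR adjusted p = 4.7e-06) and Pdha1 were lower. Pdha1 had 119, 117 and 126 CPM in treated TFH and 179.8, 169.6 and 172 CPM in treated Tconv libraries, without overlap (log2 fold change -0.53 ± 0.13, edgeR adjusted p = 0.0047). In control mice Eno2 was higher in TFH cells (log2 fold change 2.52 ± 0.58, edgeR adjusted p = 0.003), with 4.69, 5.02 and 20.97 CPM in the TFH libraries. The genes lower in control TFH cells were Eno1, Ldha, Tkt, Pdk1 and Pdk2, with log2 fold changes of -0.89, -0.72, -0.58, -2.22 and -4.35. Tkt did not pass without control Tconv 1 or control TFH 1 (edgeR adjusted p = 0.064 to 0.072). Without the libraries holding kidney transcripts, which leaves 1 control Tconv library, 6 of these 15 calls remained, and the calls over all genes numbered 1996, against 4701. Among those no longer called, the log2 fold change was then -2.42 for Pdk2 (edgeR adjusted p = 0.22), -0.44 for Tkt (0.28), -0.98 for Eno1 (0.058) and 2.84 for Eno2 (0.083).

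TFR against TFH cells of treated mice gave 13 higher and 0 lower of the 36 genes, where 4.61% of all genes tested were higher and 4.96% lower. The same comparison in control mice gave 6 higher and 1 lower of the 36 genes, where 7.82% of all genes tested were higher and 8.0% lower. Tpi1 had 341, 382 and 397 CPM in treated TFR and 138, 131 and 132 CPM in treated TFH libraries (log2 fold change 1.48 ± 0.24, edgeR adjusted p = 0.00022). Eno3 had 23.2, 28.1 and 26.8 CPM in treated TFR and 9.79, 7.57 and 10.4 CPM in treated TFH libraries (log2 fold change 1.49 ± 0.35, edgeR adjusted p = 0.0065, lost without treated TFH 2 at 0.051). In control mice Ldha was higher in TFR cells (log2 fold change 1.05 ± 0.12, edgeR adjusted p = 6.6e-06), as was Tkt (log2 fold change 0.76 ± 0.17, edgeR adjusted p = 0.0059). These 2 were the control calls that held with each library left out, and Bpgm, the gene called lower (log2 fold change -0.97 ± 0.30, edgeR adjusted p = 0.034), overlapped between groups. B cell markers summed to 20.2 to 21.5 CPM in treated and 43.2 to 86.7 CPM in control TFH libraries, against 9.66 to 11.9 CPM in treated and 4.55 to 6.97 CPM in control TFR libraries, with Cr2 at 0 in control TFR libraries, and their part in these differences was not tested.

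TFR against Treg cells of treated mice gave 8 higher and 0 lower of the 36 genes, where 1.78% of all genes tested were higher and 2.83% lower. Control mice gave 1 higher and 0 lower of the 36 genes, where 2.28% of all genes tested were higher and 7.46% lower, with Slc16a3 the gene called. In treated mice Pkm had 1062, 1276 and 1306 CPM in TFR and 646, 679 and 550.1 CPM in Treg libraries (log2 fold change 0.96 ± 0.11, edgeR adjusted p = 5.8e-06). Tpi1 was also higher (log2 fold change 1.01 ± 0.24, edgeR adjusted p = 0.014), although without treated Treg 1 or 3 or treated TFR 2 or 3 it did not pass (edgeR adjusted p = 0.058 to 0.091). The treated count was 4 without treated Treg 1, treated Treg 3, treated TFR 2 or treated TFR 3 and 5 without treated Treg 2. In control mice Slc16a3 had 25.95, 39.9 and 41.9 CPM in TFR and 17.2, 15.8 and 16.8 CPM in Treg libraries (log2 fold change 1.11 ± 0.27, edgeR adjusted p = 0.011), and the control count was 3 without control TFR 2 and 4 without control TFR 3.

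**Figure D5:**
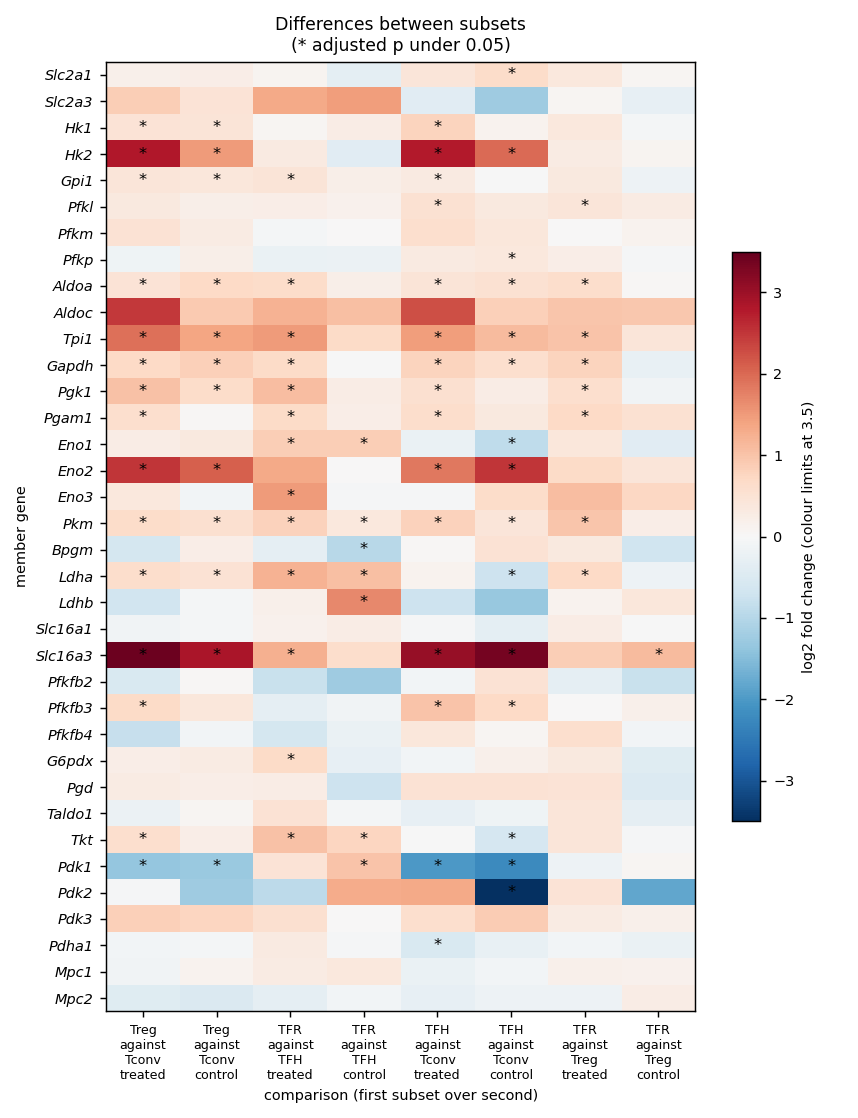
Log2 fold change (colour) of the 36 genes (rows) between subsets, first-named over second-named, in treated and control mice (columns). Stars mark an adjusted p under 0.05, and Slc16a3, Hk2 and Eno2 are strong in the columns against Tconv while Pdk1 is lower there in Treg and TFH cells.

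Levels can be compared between genes per kb of exon. Aldoa had the highest level of the 36 genes in each of the 8 groups, from 139 CPM per kb in treated and 92.7 CPM per kb in control Tconv cells to 299 CPM per kb in treated and 156 CPM per kb in control TFR cells. Gapdh, Pkm and Ldha took the next places in every group but control TFH, where Pgk1 (39.8 CPM per kb) stood above Ldha (35.6 CPM per kb). Tpi1 had 136 CPM per kb in treated and 20.4 CPM per kb in control TFR cells, and 67.4 CPM per kb in treated and 15.3 CPM per kb in control Treg cells. In treated Tconv cells Slc16a3 (0.415 CPM per kb), Eno2 (0.457 CPM per kb) and Aldoc (0.296 CPM per kb) were the lowest 3.

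Further genes of glucose use were counted from a separate list. Of 38 further genes of the pathway (34 tested), 2 in Tconv, 1 in Treg, 5 in TFH and 4 in TFR cells were higher with treatment and 0, 1, 1 and 1 were lower. Each count of higher genes is a smaller share than the 6.89, 5.17, 16.5 and 15.6% of all genes tested that were higher. Emb, encoding embigin, a chaperone of monocarboxylate transporters, averaged 217 ± 26.6 CPM in treated and 474 ± 122 CPM in control TFH libraries (log2 fold change -1.13 ± 0.14, edgeR adjusted p = 3.8e-06), and it fell in Treg (-0.58 ± 0.14, 0.0068) and TFR cells (-0.85 ± 0.14, 0.0001) as well. Bsg, encoding basigin, the other such chaperone, rose in TFR cells, with 192 ± 23.3 CPM in treated and 103 ± 5.82 CPM in control libraries (0.90 ± 0.16, 0.00035). Txnip, a brake on glucose uptake, rose in Tconv (0.62 ± 0.11, edgeR adjusted p = 0.0006), TFH (0.55 ± 0.11, 0.0014) and TFR cells (0.66 ± 0.11, 0.00023). Pgm2 rose in Tconv (0.70 ± 0.16, 0.0066), Pgm1 in Treg (1.05 ± 0.28, 0.018) and H6pd in TFH cells (2.94 ± 0.72, 0.006), the first 2 encoding enzymes that move phosphate on sugars and H6pd a glucose 6-phosphate dehydrogenase of the endoplasmic reticulum. Exons of Emb, Txnip and Pgm1 overlap antisense genes by 686, 606 and 398 bases.

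Of 16 genes of the citric acid cycle, all tested, 0 in Tconv, 0 in Treg, 1 in TFH and 5 in TFR cells were higher and 0 lower in any. The share in TFH cells is below the 16.5% of all genes tested that were higher there, and that in TFR cells is above the 15.6% higher there. Cs, citrate synthase, averaged 209 ± 12.2 CPM in treated and 143 ± 27.6 CPM in control TFR libraries (0.55 ± 0.13, edgeR adjusted p = 0.0043), and 144 ± 6.88 CPM in treated and 108 ± 20.2 CPM in control TFH libraries (0.41 ± 0.13, 0.029). Sdhb (0.63 ± 0.15, 0.0051) and Idh3a (0.63 ± 0.18, 0.013) rose in TFR cells.

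Among 10 regulators of the pathway, 1, 0, 3 and 2 were higher and 0, 2, 3 and 3 lower in treated cells (Tconv, Treg, TFH and TFR in this order), where of all genes tested 6.89, 5.17, 16.5 and 15.6% were higher and 3.05, 3.56, 5.86 and 6.39% lower. Hif1a, the oxygen-regulated subunit of a factor known to activate glycolytic genes, fell in TFH cells, with 977 ± 102 CPM in treated and 1936 ± 128 CPM in control libraries (-0.99 ± 0.09, edgeR adjusted p = 7.5e-08). It also fell in TFR (-0.58 ± 0.09, 7.1e-05) and Treg cells (-0.39 ± 0.09, 0.0068). Arnt, its partner subunit, averaged 80.3 ± 2.68 CPM in treated and 171 ± 0.737 CPM in control TFR libraries (-1.09 ± 0.14, edgeR adjusted p = 5.7e-06), and fell in TFH (-0.79 ± 0.14, 0.00029) and Treg cells (-0.51 ± 0.14, 0.02). Myc, another activator of glycolytic genes, rose in Tconv cells, with 166 ± 4.69 CPM in treated and 95.2 ± 13.1 CPM in control libraries (0.80 ± 0.14, 0.00033), in TFH (0.82 ± 0.14, 0.00029) and in TFR cells (0.87 ± 0.14, 0.00011). Transcript levels do not show the activity of these factors, HIF1A being controlled mainly as a protein, and 330 exonic bases of Hif1a overlap an antisense gene.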

How the data were processed

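Whole-number read counts per gene of 24 libraries were deposited by the authors as 1 table. STAR, featureCounts and mm10 are named in the submitters' processing notes. For versions, annotation release and strand setting, the entry is: not given in the sources used here. IDs were matched without their version to GENCODE M21 (38872 of 39056), which gave symbols, coordinates and exonic lengths. Raw counts were tested with edgeR 4.0.16 (R 4.3.3): group means for the 8 groups over all 24 libraries, filterByExpr, TMM factors and a quasi-likelihood F test, with Benjamini-Hochberg adjustment over 18789 genes. Isozyme shares were compared by an exact permutation test within subsets (160000 arrangements), adjusted over 8 shares. The procedure was tested on simulated data. DESeq2 1.42.0, other scaling, filter and thinning settings, a replicate block, and fits without single libraries or without those holding kidney transcripts were alternatives. No 2 libraries of the same group agreed within sampling noise, and pairs across groups were not compared.

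The 36 genes and the other lists were chosen with earlier results of these data known. Genes given in full were up to 4 per direction in each treated-against-control comparison, and up to 2 in each other one, with the largest log2 fold change among those called, not overlapping and at 5 CPM or more in the higher group, plus the isozymes of the shares. Genes of the other lists were named from the 3 smallest p-values per list and comparison. In no comparison did all same-numbered libraries deviate together, so numbers were not used as pairs. Library totals set the precision: control TFH and TFR libraries, with 2.54 to 15.2 M counts, are the least precise.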

Additional observations from a re-analysis of the deposited data

Results flagged for a closer look

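For 10 results the treated-against-control difference in 1 subset differed from that in another by a test of the difference itself (edgeR quasi-likelihood test, adjusted over all genes). In TFH minus Tconv cells these were Hk1 at 0.65, Ldha at 0.84 and Pdk2 at 5.69 on the log2 scale. These are 8.33% of the 36 genes, where 14.4% of all genes tested were higher and 5.22% lower. In TFR minus Treg cells the results were Gpi1 at 0.53, Aldoa at 0.58, Gapdh at 1.04, Pkm at 0.73, Ldha at 0.88, G6pdx at 0.75 and Taldo1 at 0.75. These are 19.4% of the 36 genes, where 5.24% of all genes tested were higher and 2.26% lower. The calls of Gpi1, G6pdx and Taldo1 were lost in 7, 11 and 10 of 12 fits with 1 library left out. The high Pdk2 values belong to treated TFH 3 and to control Tconv 1 and 2, which hold kidney transcripts, and without the libraries that hold them the Pdk2 difference was 2.16 and did not pass (edgeR adjusted p = 0.62). Groups of 3 libraries were not searched for single outlying libraries. When counts of pairs within a group were compared, control Treg 3 stood apart from control Treg 1 and 2. The chi-square per degree of freedom was 295 and 317 for these pairs, against 15.7 between control Treg 1 and 2. Treated TFH 3, which holds kidney transcripts, had 291 and 247. The cause of the control Treg 3 difference was not tested.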

How the results depend on the processing

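Of 167 calls of the 36 genes over the 14 comparisons, 166 stayed past the threshold with DESeq2, 165 with scaling that leaves out mitochondrial, haemoglobin and receptor genes, 162 with relative log expression factors, 151 with no low-count filter, 151 with thinned libraries, 143 with only the libraries compared in the fit and 120 without the libraries holding kidney transcripts. No log2 fold change of a called gene reversed. The cause was not tested for any of the counts below. Most of them are given without the share of all genes called in the same setting. A count alone therefore does not show a change particular to the 36 genes. Without the kidney libraries the counts of called genes were 3 for treated against control Tconv, 5 for Treg against Tconv and 6 for TFH against Tconv in control mice, and 1 for TFH minus Tconv. The Aldoc share difference was 0.377 points. Without treated Treg 3 as well, a setting chosen after seeing the data, they were 4 for TFR against Treg in treated mice and 4 for TFR minus Treg. With only the libraries compared, the counts were 30 for treated against control Treg, 1 for TFR against TFH, 6 for TFH against Tconv and 0 for TFR against Treg in control mice, 31 for Treg against Tconv, 23 for TFR against TFH, 23 for TFH against Tconv and 26 for TFR against Treg in treated mice, and 11 for TFR minus Treg. TFR against Treg in control mice gave 4 with relative log expression factors, 2 with the other scaling, 5 with DESeq2 and 0 with no filter (edgeR), where unadjusted p was under 0.05 for 8 of the 36 genes, and for 3 with only the libraries compared. TFR against Treg in treated mice gave 13 with DESeq2. TFH minus Tconv gave 5 with relative log expression factors, 5 with the other scaling and 7 with DESeq2, and TFR minus Treg gave 4 with no filter. The Slc16a3 share difference was -5.84 points when thinned. Scaling without mitochondrial, haemoglobin and receptor genes shifted the median log2 fold change of all genes by 0.11 in treated against control TFR, 0.14 in Treg against Tconv of treated mice and 0.10 in TFH minus Tconv. With relative log expression factors 1062 of all genes were higher and 746 lower in treated against control Tconv cells, against 1294 and 574 with TMM factors. They gave 618 and 1198 in TFR against Treg of control mice, against 429 and 1402. Scaling without those genes gave 1218 higher and 490 lower in treated against control Treg cells, against 972 and 668, 1547 and 707 in Treg against Tconv of treated mice, against 1197 and 1041, and 1084 and 720 in TFR against TFH of treated mice, against 866 and 932.

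With 1 library left out, counts ran from 11 to 13 (treated against control Tconv), 13 to 15 (Treg), 17 to 20 (TFH) and 19 to 23 (TFR). In control mice they ran from 8 to 11 (Treg against Tconv), 6 to 8 (TFR against TFH), 12 to 17 (TFH against Tconv) and 1 to 4 (TFR against Treg), and in treated mice from 13 to 15, 10 to 13, 11 to 14 and 4 to 8 in the same order. They ran from 2 to 8 for TFH minus Tconv and 4 to 8 for TFR minus Treg, where 4 was reached without treated Treg 1 or 3, control Treg 1 or 3, or treated TFR 2 or 3. The Slc2a3 share difference ran from -1.99 to 2.69 points and reversed without control TFR 2 (-1.99), control TFH 1 (-1.04) and control TFH 3 (-0.26). Other share differences ran from 0.325 to 0.500 (Aldoc), 10.6 to 11.7 (Hk2), -11.8 to -9.26 (Ldhb), 11.1 to 14.2 (Pdk1), 14.3 to 17.5 (Pfkfb3), 1.39 to 2.65 (Pfkp) and -9.70 to -6.51 points (Slc16a3). With a replicate block 163 of the 167 calls remained. Deviations of log2 CPM from the group mean correlated between same-numbered libraries at -0.81 to 0.70, and in no comparison were all 3 correlations above 0.1. The largest values, of either sign, were in TFR against TFH and TFR against Treg of treated mice, where single libraries hold kidney transcripts. These correlations cannot show whether same-numbered libraries share a mouse, and the numbers were not used as pairs.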
